A study of Mus musculus with 24 samples.

Results

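The response of fat cells to the PPARδ agonist GW610742 was set against their response to the PPARγ agonist GW347845. Of the 24 array columns of the series, the 12 of agonist-treated cells were compared with each other, 6 arrays of GW610742 against 6 of GW347845. Each treated array was first expressed relative to vehicle: the mean of the DMSO columns of its own set was subtracted probe by probe, and the result is called the response, in log2 units. The remaining 12 columns are 6 DMSO hybridizations that the authors normalized once with each agonist's arrays, so both responses share the same controls.

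All cells were 3T3-L1, a mouse embryonic fibroblast line that turns into fat-storing adipocytes under a hormone cocktail. They were treated for 48 h from day 11 after induction with GW610742, with GW347845 or with DMSO alone. RNA was hybridized to Illumina mouse bead arrays. The sample labels give 1 µM GW610742 and 100 µM GW347845, while the methods name lower doses of GW347845 for these cells, so the doses were not matched and the one used on the GW347845 arrays was not settled. The 6 arrays of a group are independent hybridizations of a single cell line, and no label ties a replicate number to a culture, so the p-values measure the spread between these arrays only.

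PPARs are nuclear receptors that bind fatty acids and their derivatives, pair with the retinoid X receptor and switch on genes next to their shared response elements. PPARγ is the master regulator of fat cell differentiation and lipid storage and the target of the thiazolidinedione drugs. PPARδ is present in most tissues and is best known for raising fatty acid oxidation in muscle and fat.

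Values were present for both agonists in 13509 probes. Of these, 1958 had a higher PPARδ than PPARγ response and 2015 a lower one at a limma adjusted p under 0.05. Each of 8197 genes was then represented by its brightest probe, and 1133 genes were higher (13.8% of all genes) and 1148 lower (14% of all genes). In this comparison both directions were about equally frequent in number, but not in size. Whether or not it passed, the difference was above 0.5 in 372 genes and below -0.5 in 29. The median difference over all genes was -0.05. The balance of directions depended on the scaling: after cyclic loess over all columns 2130 probes were higher and 1167 lower, so 64.6% of the calls were higher, against 49.3% in the values as deposited. It also depended on how DMSO entered. With the DMSO columns as samples in 1 fit of all 24 columns, 912 genes were higher and 420 lower. With the DMSO column of the same number subtracted from each array, 932 were higher and 463 lower. Both settings add the spread between DMSO hybridizations to the error, although the responses share these hybridizations. The fit of all 24 columns also counts each of them once per normalization.

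Against DMSO, 664 genes rose (8.1%) and 722 fell (8.81%) with GW610742. With GW347845, 816 rose (9.95%) and 1082 fell (13.2%). Among the 1133 genes with the higher PPARδ response, the most frequent pattern was no call with GW610742 and a fall with GW347845, at 646 genes. Another 200 rose with GW610742 and fell with GW347845, 145 rose with GW610742 only and 122 passed against DMSO with neither agonist. Among the 1148 genes with the lower PPARδ response, 263 fell with GW610742 only, 341 rose with GW347845 only and 520 passed against DMSO with neither.

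**Figure D1:**
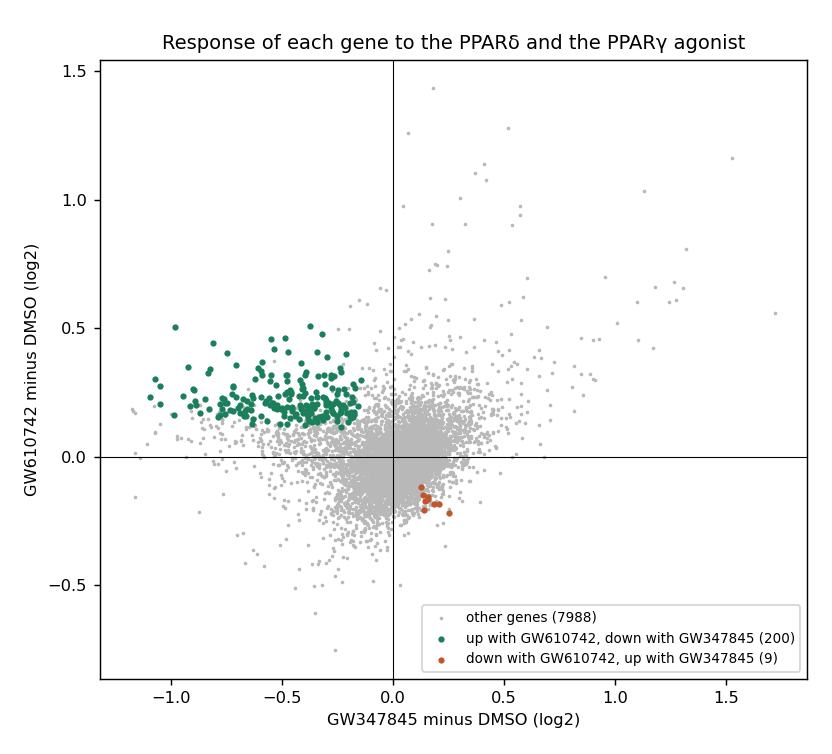
Mean response of each of 8197 genes to GW610742 (vertical axis, log2) and to GW347845 (horizontal axis, log2), each relative to the same 6 DMSO hybridizations. Coloured points are genes that passed in opposite directions, 200 up with GW610742 and down with GW347845 and 9 the other way, and the widest part of the cloud runs toward negative PPARγ responses, where 238 genes lie below -0.5.

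As the figure of both responses shows, the spread was wider with GW347845. The response to GW347845 was below -0.5 in 238 genes and above 0.5 in 75. The response to GW610742 was above 0.5 in 54 genes. In 813 genes (9.92%) all 6 GW610742 responses lay above all 6 GW347845 responses, and in 312 (3.81%) all lay below.

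The arrays of GW347845 did not form 1 tight group. The 11 measured markers of mature adipocytes had array medians between -0.21 and 0.51 in the GW610742 arrays and between -0.27 and 1.23 in the GW347845 arrays, where replicates 1, 2 and 3 stood at 0.98, 1.15 and 1.23 and replicates 4, 5 and 6 at 0.00, -0.16 and -0.27. None of the 11 markers passed in the difference. Adipoq, the fat cell hormone adiponectin, had responses of -0.28, 0.47 and 0.75 (lowest, median and highest array) with GW610742 and -0.84, 0.48 and 1.23 with GW347845, and these ranges overlap. The marker level moved with the replicate number. Many of the gene lists below are therefore also given for replicates 1 to 3 and 4 to 6 apart. Each set was taken with the 3 DMSO hybridizations of the same numbers, which no label ties to its treated arrays. Over all genes, 1151 (14%) were higher and 1142 (13.9%) lower in replicates 1 to 3, and 931 (11.4%) were higher and 670 (8.17%) lower in replicates 4 to 6. Less fat cell RNA and fewer fat cells cannot be told apart in bulk RNA, and the part that these markers have in any result was not tested.

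Of all 8197 genes, 2659 had more than 1 probe, and the further probes often went their own way. For the 330 genes with a higher PPARδ response and at least 1 further probe, 106 of the 444 further probes were higher too, 58 were lower and 280 did not pass, and their median difference was -0.04 against 0.38 on the brightest probes. For genes with a lower PPARδ response, 172 of 548 further probes were lower, 65 were higher and 311 did not pass. Over all genes, 507 of 3600 further probes were higher, 640 were lower and 2453 did not pass. The further probes of the genes described are therefore given beside them, and the reason for the disagreement was not tested.

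**Figure D2:**
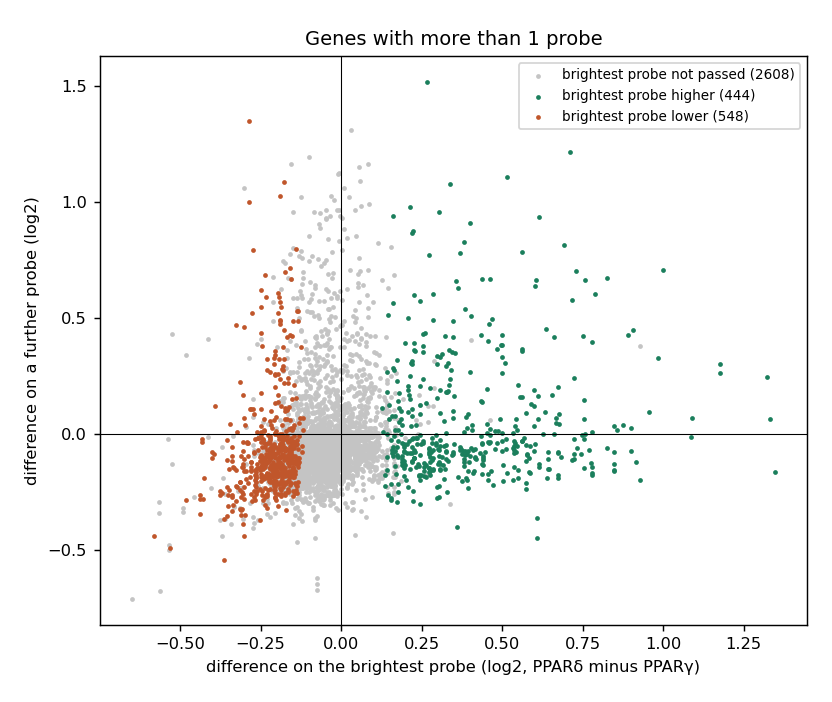
PPARδ minus PPARγ response (log2) of further probes, vertical axis, against the brightest probe of the same gene, horizontal axis, for genes with more than 1 probe. Points near the diagonal are probes that agree, and of 444 further probes of genes with a higher brightest probe 106 were higher and 58 lower.

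The genes of fat cell biology were first read by function, in lists of known members. The plot of calls per list gives the counts. By these counts, mitosis, mitochondrial transcripts and matrix proteases leaned to the higher side. Peroxisomes, calcium and cyclic AMP signalling and complex I leaned to the lower side. Several of these leans differed between replicates 1 to 3 and replicates 4 to 6, in size and in calls. In replicates 4 to 6, complex I and peroxisomes had more genes higher than lower, and few mitosis genes passed, as given below. The median difference was -0.24 and -0.04 for complex I, 0.03 and 0.76 for mitochondrial transcripts and 0.43 and 0.17 for mitosis, in that order.

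**Figure D3:**
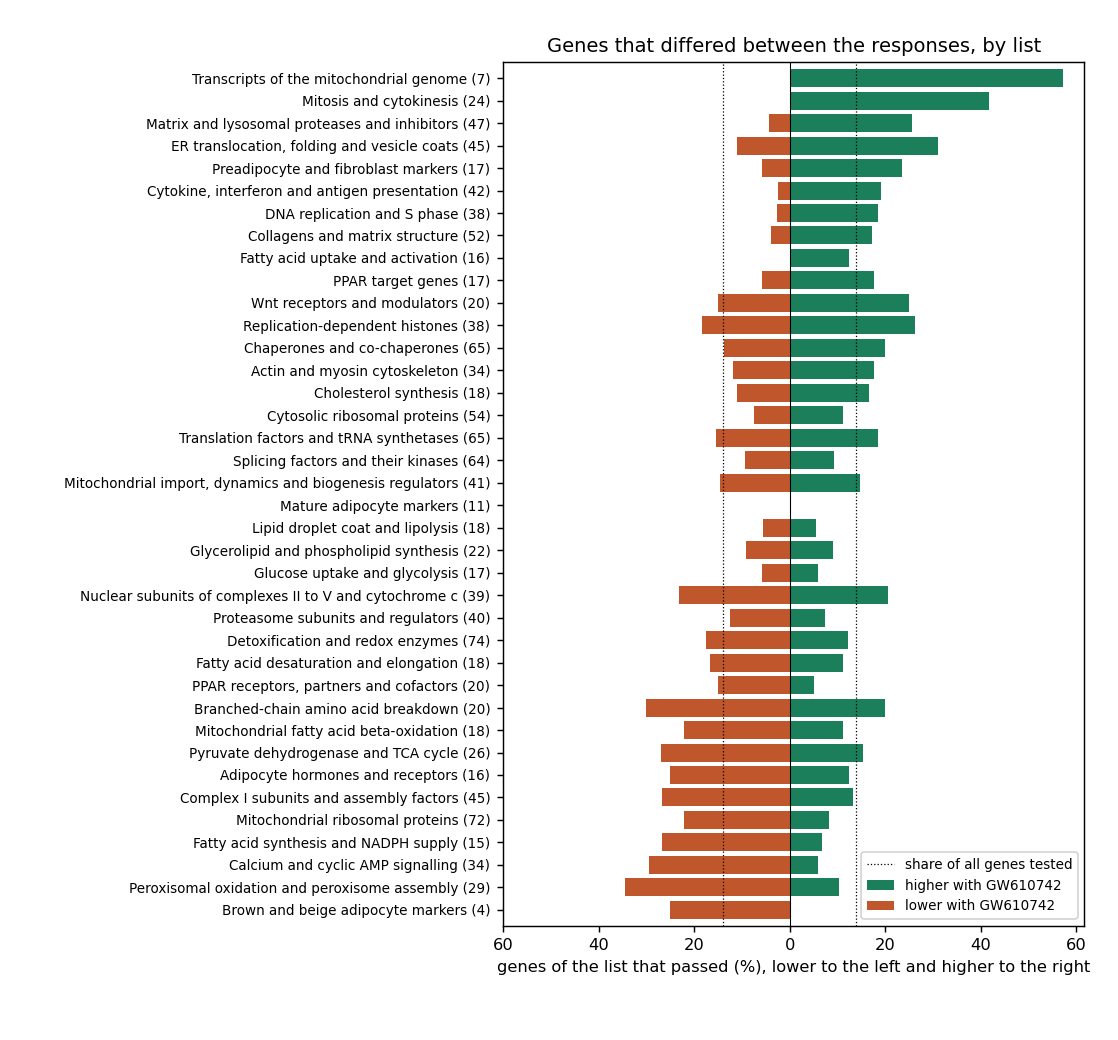
Percent of the measured genes of each list whose PPARδ response was higher or lower than the PPARγ response at adjusted p under 0.05, with the shares over all genes, 13.8% and 14%, as dotted lines. Mitosis and cytokinesis had 10 genes higher and 0 lower of 24.

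The classical PPAR targets responded to both agonists. Of 17 measured, 10 rose and 0 fell with GW610742, and 7 rose and 1 fell with GW347845, with median responses of 0.35 with GW610742 and 0.32 with GW347845. The difference passed in 4, with 3 higher and 1 lower, and the median difference was -0.03 against -0.05 over all genes. Angptl4, a secreted inhibitor of lipoprotein lipase, had responses of 0.72, 0.79 and 0.88 with GW610742 and 0.11, 0.27 and 0.32 with GW347845. Every GW610742 array was above every GW347845 array, and the mean difference was 0.55 ± 0.05 (SE, n = 6 each, adjusted p = 5.49e-07). It rose with both agonists, by 0.80 with GW610742 and 0.25 with GW347845.

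Pdk4 was the target gene that went opposite ways. It encodes the kinase that shuts off pyruvate dehydrogenase and so spares glucose when fat is burned. Its responses were 0.31, 0.49 and 0.59 with GW610742 and -0.48, -0.37 and -0.06 with GW347845, a difference of 0.79 ± 0.07 (adjusted p = 5.34e-07). The groups did not overlap, although DMSO columns of the delta set ran through -0.27 to 0.28 around their own mean. It rose by 0.48 with GW610742 (adjusted p = 3.27e-04) and fell by 0.32 with GW347845 (adjusted p = 0.0115).

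Other targets rose with both and could not be told apart. Plin2, a coat protein of lipid droplets, rose by 0.48 with GW610742 and 0.53 with GW347845, and its difference of -0.05 had a 95% interval of -0.31 to 0.21. For Acaa2, the thiolase of the last step of β-oxidation, the rises were 0.59 with GW610742 and 0.49 with GW347845, and the interval of the difference was -0.11 to 0.31. Slc25a20, the carrier of acylcarnitines into mitochondria, rose by 0.21 with GW610742 and 0.20 with GW347845, with an interval of -0.14 to 0.15. The 3 further probes of Acaa2 differed by -0.05, -0.01 and -0.04 and that of Slc25a20 by -0.04, and none of them passed. Plin4, another lipid droplet coat protein, rose by 0.65 with GW610742 and 1.31 with GW347845, and its difference of -0.65 ± 0.25 missed the threshold (adjusted p = 0.057). The replicates were split on these targets. In replicates 1 to 3, 2 of the 17 were higher and 9 lower with a median difference of -0.32, and in replicates 4 to 6, 5 were higher and 0 lower with a median of 0.22. With GW347845 the median response of the list was 0.62 in the first set and 0.13 in the second set.

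Mitochondrial β-oxidation, which cuts fatty acids into acetyl-CoA, had 18 measured genes, of which 8 rose with GW610742 and 8 with GW347845. The difference was higher in 2 and lower in 4, with a median of -0.18. Eci2, an isomerase that lets unsaturated fatty acids enter the pathway, was fully separated: its responses were 0.26, 0.32 and 0.41 with GW610742 and -0.76, -0.42 and -0.27 with GW347845, without overlap (difference 0.80 ± 0.08, adjusted p = 2.38e-06). It rose with GW610742 and fell with GW347845, and it is also counted among the peroxisomal genes below. Hadhb, a subunit of the trifunctional protein, also was higher by 0.77 ± 0.24 (adjusted p = 0.0261), but its ranges of 0.22 to 0.46 with GW610742 and -1.12 to 0.57 with GW347845 overlap. Acadm, the medium-chain dehydrogenase, had the lower PPARδ response, 0.07 with GW610742 and 0.58 with GW347845 (difference -0.51 ± 0.18, adjusted p = 0.0452). With 1 treated array left out, the adjusted p reached 0.0584 for Hadhb and 0.0924 for Acadm.

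Other genes of the pathway were on the lower side or split between probes. Acad10, an acyl-CoA dehydrogenase family member, had responses of -0.18, -0.14 and -0.12 with GW610742 and -0.08, 0.18 and 0.35 with GW347845, with all GW610742 arrays below, and its further probe was lower as well. Etfa, which passes electrons from the dehydrogenases to the respiratory chain, differed by -0.25 on its brightest probe and by 0.55 and 0.62 on the other probes, all of which passed, although the brightest missed the threshold without GW347845 replicate 2 (adjusted p = 0.0522). In replicates 1 to 3 the list had 1 gene higher and 11 lower (median -0.37), and in replicates 4 to 6 there were 5 higher and 1 lower (median 0.09).

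Peroxisomes shorten very long and branched fatty acids. Of 29 genes for their enzymes and assembly, 3 were higher and 10 lower, with a median difference of -0.16, and 6 rose with GW610742 against 10 with GW347845. Abcd3, the peroxisomal transporter of branched fatty acyl-CoA, had responses of -0.08, -0.06 and 0.09 with GW610742 and 0.11, 0.20 and 0.31 with GW347845, all GW610742 arrays below (adjusted p = 0.00119). One of its dim further probes differed the other way, by 0.69, and the other had -0.14 and did not pass. Acaa1b, a peroxisomal thiolase, had the largest lower difference of any gene that passed, -1.16 ± 0.42 (adjusted p = 0.049). It rose with both agonists, by 0.56 with GW610742 and 1.72 with GW347845, and its responses of 0.06, 0.67 and 0.85 with GW610742 and 0.38, 1.68 and 3.12 with GW347845 overlap. The call was lost without any 1 of 9 arrays, all of GW610742 and GW347845 replicates 1 to 3 (adjusted p up to 0.1). Acox3, an oxidase of branched chains, had 0.03 with GW610742 and rose by 0.27 with GW347845. The higher side included Eci2, described above, and Pecr, a reductase of unsaturated acyl-CoA. Pecr had 0.08 with GW610742 and fell by 0.16 with GW347845, without overlap (difference 0.25 ± 0.05). Over replicates 1 to 3 the list had 2 genes higher and 16 lower, and over replicates 4 to 6, 3 higher and 1 lower.

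For lipid droplet proteins and lipases, 1 of 18 genes was higher and 1 lower, with a median difference of -0.19. Abhd5, the coactivator of the first triglyceride lipase, had -0.01 with GW610742 and rose by 0.33 with GW347845 (difference -0.34 ± 0.07, adjusted p = 0.00199). Hilpda, an inhibitor of that lipase, differed by 0.19 ± 0.06 on its brightest probe and by -0.13 on a dimmer one that passed as lower, and without 1 array the adjusted p of the brightest reached 0.0715. The replicates split here too, with 3 higher and 14 lower in replicates 1 to 3 and 0 and 1 in replicates 4 to 6.

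Among genes of glycerolipid synthesis, 2 of 22 were higher and 2 lower. Agpat3, an acyltransferase that makes phosphatidic acid, had responses of 0.35, 0.50 and 0.60 with GW610742 and -0.39, -0.24 and 0.05 with GW347845, so the groups were fully apart (difference 0.69 ± 0.07, adjusted p = 2.28e-06), and it rose with GW610742. Lpcat3, which loads polyunsaturated chains into phospholipids, rose by 0.18 with GW610742 and 0.45 with GW347845, a difference of -0.27 ± 0.09 (adjusted p up to 0.0785 without 1 array), whereas its second probe differed by 0.79 in the other direction. The list had 1 higher and 13 lower in replicates 1 to 3 (median -0.25) and 1 and 0 in replicates 4 to 6 (median 0.02).

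Fatty acid synthesis and the supply of NADPH had 1 gene higher and 4 lower of 15, with a median of -0.23. Me1, the malic enzyme that makes cytosolic NADPH, was the exception: it rose by 0.50 with GW610742, had -0.25 with GW347845 (adjusted p = 0.149), and the responses of 0.33, 0.50 and 0.66 with GW610742 and -0.68, -0.26 and 0.17 with GW347845 did not overlap. Acacb, the acetyl-CoA carboxylase at the mitochondrial surface, had -0.02 with GW610742 and rose by 0.27 with GW347845. Tkt, transketolase of the pentose phosphate pathway, rose by 0.20 with GW610742 and 0.58 with GW347845 (adjusted p of the difference 0.0329, up to 0.0691 without 1 array). Aacs, which activates acetoacetate for lipid synthesis, had -0.02 with GW610742 and rose by 0.23 with GW347845. Over replicates 1 to 3 the list had 1 higher and 10 lower (median -0.34), and in replicates 4 to 6, 1 and 1 (median -0.02).

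Desaturases and elongases had 2 genes higher and 3 lower of 18. Fads3, a member of the fatty acid desaturase cluster, rose with both agonists, by 0.14 with GW610742 and 0.57 with GW347845. Its responses were 0.00, 0.16 and 0.22 with GW610742 and 0.39, 0.59 and 0.72 with GW347845, with all GW610742 arrays below (difference -0.43 ± 0.06, adjusted p = 4.70e-05). Fads2, the delta-6 desaturase, differed by -0.16 ± 0.04 and its second probe was lower too. Cyb5a, the electron donor of these enzymes, was higher by 0.31 ± 0.09 and by 0.35 on its further probe.

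In fatty acid uptake, 2 of 16 genes were higher and 0 lower. Cav1, the main protein of caveolae, had responses of 0.21, 0.35 and 0.69 with GW610742 and -1.27, -0.44 and 0.08 with GW347845 (difference 0.91 ± 0.21, adjusted p = 0.00456), with no overlap, and it rose by 0.37 with GW610742. Lrp1, a receptor for lipoprotein remnants, rose by 0.52 with GW610742 and had 0.06 with GW347845 (difference 0.46 ± 0.06, adjusted p = 2.09e-05). In cholesterol synthesis 3 of 18 were higher and 2 lower. Insig1, which holds back the sterol regulator SREBP, fell by 0.52 with GW347845 and was higher by 0.61 ± 0.11, but its 2 dim further probes had -0.36 and -0.45 and did not pass. Cyp51, a demethylase of lanosterol, fell by 0.20 with GW610742 and had 0.10 with GW347845. The cholesterol list had 2 higher and 7 lower in replicates 1 to 3 (median -0.28) and 4 and 0 in replicates 4 to 6 (median 0.11).

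Glycolysis had 1 gene higher and 1 lower of 17. Pgk1, phosphoglycerate kinase, rose by 0.44 with GW610742 and had -0.09 with GW347845 (difference 0.53 ± 0.11). Aldoa, aldolase, rose with both, by 0.31 with GW610742 and 0.66 with GW347845 (difference -0.35 ± 0.12, adjusted p = 0.0491, up to 0.0991 without 1 array).

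The gate to the TCA cycle and the cycle itself had 4 genes higher and 7 lower of 26, with a median of -0.17. The higher ones differed by more, as over all genes, where the difference was above 0.5 in 372 and below -0.5 in 29. Idh2, the NADP-dependent isocitrate dehydrogenase of mitochondria, had responses of 0.02, 0.13 and 0.23 with GW610742 and -1.24, -1.02 and -0.82 with GW347845, and the difference of 1.18 ± 0.07 (adjusted p = 2.95e-08) came with a fall of 1.05 under GW347845. Sdhd, the membrane anchor of succinate dehydrogenase, rose by 0.41 with GW610742 and fell by 0.47 with GW347845 (difference 0.88 ± 0.09). Dld, the lipoamide dehydrogenase shared by the pyruvate and ketoglutarate complexes, rose by 0.19 with GW610742 and fell by 0.52 with GW347845 (difference 0.71 ± 0.07). With Pdk4 these were the 4 higher genes.

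On the other side, Pdha1, the catalytic subunit of pyruvate dehydrogenase, had -0.30, -0.13 and 0.01 with GW610742 and 0.16, 0.21 and 0.37 with GW347845, all GW610742 arrays below (difference -0.35 ± 0.06, adjusted p = 3.45e-04). Pdk1, a relative of Pdk4 with the same substrate, had -0.06 with GW610742 and 0.11 with GW347845, again without overlap. The kinases thus lay on opposite sides. Sdhc, the partner of Sdhd in the membrane, had 0.01 with GW610742 and rose by 0.20 with GW347845. Over replicates 1 to 3 the list had 4 higher and 14 lower, and over replicates 4 to 6, 8 higher and 2 lower.

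Breakdown of branched-chain amino acids, a fuel of fat cells, had 4 genes higher and 6 lower of 20. Acadsb, the short branched-chain dehydrogenase, had -0.02, 0.07 and 0.21 with GW610742 and -1.13, -0.81 and -0.39 with GW347845, with no overlap (difference 0.87 ± 0.12, adjusted p = 3.48e-05). Mccc1, a subunit of the leucine pathway's carboxylase, had 0.14 with GW610742 and fell by 0.41 with GW347845. In the other direction Oxct1, which activates ketone bodies, fell by 0.20 with GW610742, had 0.16 with GW347845 and did not overlap (difference -0.36 ± 0.05, adjusted p = 4.57e-05), and its second probe differed by -0.54. Over replicates 1 to 3 the list had 3 higher and 12 lower (median -0.31), and in replicates 4 to 6, 5 and 3 (median -0.02).

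In complex I, which feeds electrons from NADH into the respiratory chain, 6 of 45 genes were higher and 12 lower. The median difference was -0.15. The higher members included subunits of the membrane arm. Ndufb9 had 0.22, 0.28 and 0.49 with GW610742 and -1.21, -0.96 and -0.07 with GW347845, and its difference of 1.16 ± 0.15 was the largest of the list (adjusted p = 2.69e-05). Ndufb2 rose by 0.30 with GW610742 and fell by 0.62 with GW347845, and Ndufb4 rose by 0.19 with GW610742 and fell by 0.50 with GW347845. Ndufb5 rose by 0.23 with GW610742 and fell by 0.56 with GW347845. These 4 made up all members that went opposite ways, and none has a further probe.

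The lower members of complex I differed by less, and large lower differences were rare over all genes too. Ndufaf7, a methyltransferase needed for assembly, fell by 0.14 with GW610742 and had 0.09 with GW347845 (difference -0.23 ± 0.06). Ndufa6, an accessory subunit, had -0.05 with GW610742 and rose by 0.15 with GW347845 (difference -0.20 ± 0.05). For Ndufs4, a subunit whose loss causes Leigh syndrome, the brightest probe was lower, at -0.19 ± 0.05, but 3 further probes were all higher, by 0.49, 0.49 and 1.03.

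Among nuclear subunits of complexes II to V, 8 of 39 were higher and 9 lower. Atp5a1, the α subunit of ATP synthase, had 0.26, 0.31 and 0.74 with GW610742 and -1.03, -0.72 and -0.40 with GW347845, a difference of 1.15 ± 0.11 (adjusted p = 9.54e-07) between groups that did not overlap. It rose by 0.40 with GW610742 and fell by 0.75 with GW347845. Atp5md, a small subunit of the same enzyme, rose by 0.25 with GW610742 and fell by 0.35 with GW347845. Cox7b of cytochrome c oxidase rose by 0.24 with GW610742 and fell by 0.46 with GW347845.

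Uqcrc1, a core protein of complex III, went with the lower group, at -0.04 with GW610742 and a rise of 0.34 with GW347845. Cox7a1, an isoform of oxidase subunit VIIa found in heart, muscle and brown fat, had 0.05 with GW610742 and rose by 0.66 with GW347845 (adjusted p of the difference 0.0274, up to 0.0599 without 1 array). Its responses ran from 0.05 to 1.30 over the GW347845 arrays and overlapped those of GW610742, -0.07 to 0.19. In replicates 1 to 3, complex I had 6 genes higher and 27 lower and the other complexes 7 and 22, while replicates 4 to 6 gave 10 and 1 for complex I and 8 and 2 for the others.

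Transcripts made from the mitochondrial DNA itself had the largest median difference of the lists, 0.39, with 4 of 7 higher and 0 lower. Of the 7, 4 rose and 1 fell with GW610742, and 0 rose and 3 fell with GW347845. ATP6, a subunit of the proton channel of ATP synthase, had 0.14, 0.35 and 0.53 with GW610742 and -1.55, -0.72 and -0.25 with GW347845 (difference 1.16 ± 0.17, adjusted p = 1.17e-04). COX2, a catalytic subunit of cytochrome c oxidase, rose by 0.46 with GW610742 and fell by 0.49 with GW347845 (difference 0.95 ± 0.16). ND4L of complex I rose by 0.32 with GW610742 and fell by 0.55 with GW347845 (difference 0.87 ± 0.14). All 3 were without overlap between the groups. The median difference was 0.03 over replicates 1 to 3, with 3 higher, and 0.76 over replicates 4 to 6, with 4 higher. The plot of list medians by array shows these lists array by array.

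**Figure D4:**
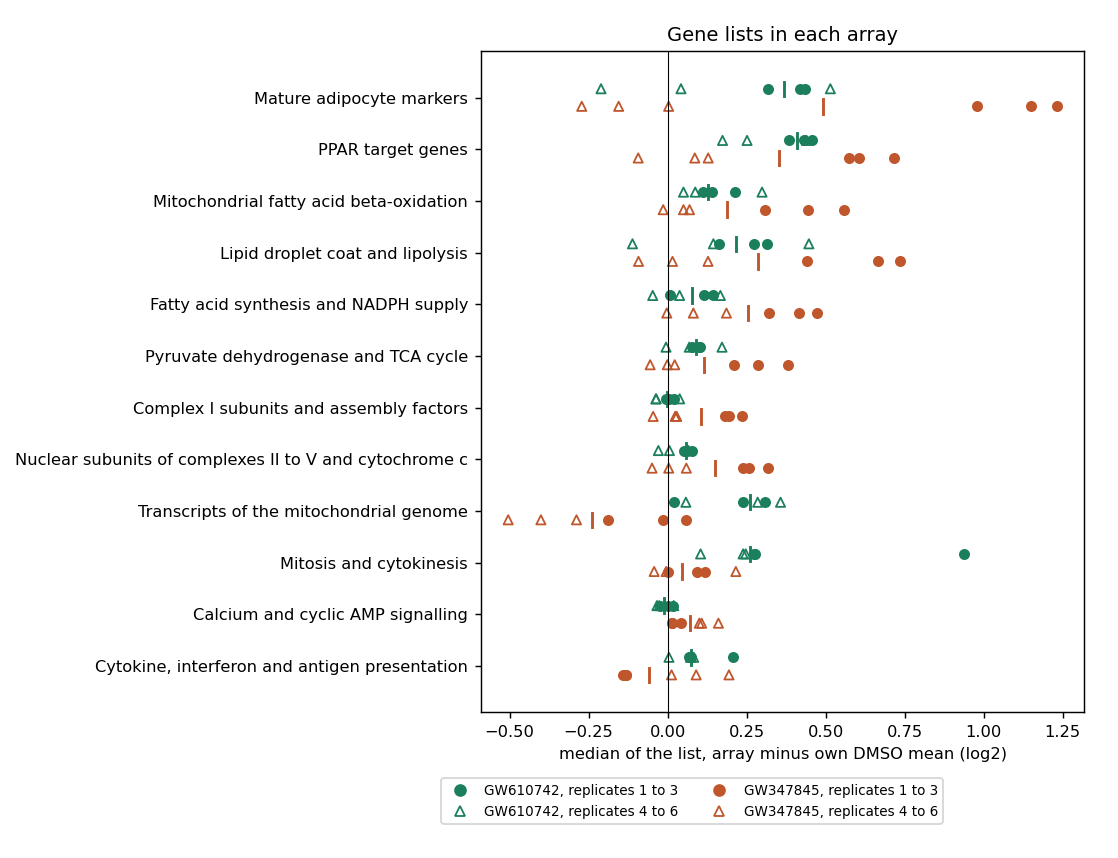
Median response (log2, relative to DMSO) of the genes of selected lists in each of the 6 GW610742 arrays and the 6 GW347845 arrays, with replicates 1 to 3 as filled circles, replicates 4 to 6 as open triangles and the median of the 6 arrays as a vertical bar. GW347845 replicates 1 to 3 and 4 to 6 stand apart in the mature adipocyte markers, at 0.98 to 1.23 and -0.27 to 0.00, and the ranges of both agonists overlap in every list.

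Mitochondrial ribosomal proteins had 6 genes higher and 16 lower of 72. Mrpl52, a protein of the large subunit, had 0.13 with GW610742, fell by 0.72 with GW347845 and was fully apart (difference 0.85 ± 0.06, adjusted p = 9.77e-08). Mrps34 of the small subunit had -0.10 with GW610742 and rose by 0.27 with GW347845. The list had 5 higher and 27 lower in replicates 1 to 3 (median -0.15) and 5 and 1 in replicates 4 to 6 (median -0.01). The cytosolic ribosome had 6 higher and 4 lower of 54 and a median of 0.01. Import, dynamics and biogenesis factors of mitochondria had 6 and 6 of 41, and proteasome subunits 3 and 5 of 40.

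Genes of mitosis and cytokinesis were higher in 10 and lower in 0 of 24, with a median difference of 0.28 against -0.05 over all genes. Of the 24, 15 rose and 1 fell with GW610742, and 2 rose and 1 fell with GW347845. The 1 that fell with GW610742 was Kif23, a kinesin of the spindle midzone, with -0.51 with GW610742 and -0.44 with GW347845. Its difference did not pass on the brightest probe and was 0.57 on the other, which passed. Mitotic genes are known to share a CCAAT box, bound by NF-Y, and a downstream element TTTGAA, known as the cell cycle genes homology region. The promoters of 5 higher members are shown over 120 bases. They are the higher members whose window held TTTGAA, that of Anln holds no CCAAT, and the other 4 windows found for higher members held neither motif. The sequences are from RefSeq, build GRCm38.p6, written 5′ to 3′ on the strand of the gene, and capitals mark CCAAT and TTTGAA or their reverse complements ATTGG and TTCAAA. Plk1, a kinase of mitotic entry and exit, is at chr7:122159365-122159484 (plus strand). Cdc20, the activator of the anaphase-promoting complex, is at chr4:118437294-118437413 (minus strand), and Aurka, a kinase of spindle poles, at chr2:172370521-172370640 (minus strand). Prc1, which bundles midzone microtubules, is at chr7:80294381-80294500 (plus strand), and Anln, anillin of the cleavage furrow, at chr9:22389157-22389276 (minus strand).
Plk1: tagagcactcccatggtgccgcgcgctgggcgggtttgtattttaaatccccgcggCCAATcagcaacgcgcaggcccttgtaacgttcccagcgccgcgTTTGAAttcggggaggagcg
Cdc20: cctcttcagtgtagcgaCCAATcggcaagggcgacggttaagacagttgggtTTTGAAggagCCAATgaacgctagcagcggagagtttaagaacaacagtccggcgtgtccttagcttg
Aurka: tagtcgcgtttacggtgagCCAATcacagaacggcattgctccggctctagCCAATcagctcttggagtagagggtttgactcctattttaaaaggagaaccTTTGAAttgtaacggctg
Prc1: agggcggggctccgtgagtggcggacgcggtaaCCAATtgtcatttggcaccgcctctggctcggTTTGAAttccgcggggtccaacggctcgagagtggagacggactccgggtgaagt
Anln: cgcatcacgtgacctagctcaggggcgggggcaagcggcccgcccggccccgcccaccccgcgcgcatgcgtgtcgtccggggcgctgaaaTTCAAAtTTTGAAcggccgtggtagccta

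Both motifs were searched on either strand in windows of 300 bases around the gene starts. CCAAT was in 37.4% and TTTGAA in 17.9% of all 32851 windows, and in 15 of the 21 windows found for the mitosis list each (71.4%). Among the genes with the higher PPARδ response, 4 of 9 windows held CCAAT and 5 of 9 TTTGAA, against 11 and 10 of the 12 windows of members that did not pass. A match describes the letters only.

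Of the 5, Prc1 had responses of 0.65, 0.86 and 1.95 with GW610742 and 0.00, 0.19 and 0.87 with GW347845 (difference 0.71 ± 0.20, adjusted p = 0.0146). Anln had 0.49, 0.76 and 1.94 with GW610742 and -0.18, 0.15 and 0.69 with GW347845 (difference 0.73 ± 0.21). The highest GW610742 value was that of replicate 2 in both, and the groups overlap. Plk1 rose by 0.62, Cdc20 by 0.55 and Aurka by 0.43 with GW610742, and their differences were 0.45 ± 0.15, 0.44 ± 0.15 and 0.40 ± 0.14. Cdc20 was higher on 1 of its 2 further probes as well.

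GW610742 replicate 2 carried much of the size. Its median over the 24 genes was 0.94, and the other GW610742 arrays had 0.10 to 0.28, against -0.04 to 0.22 in the GW347845 arrays. Without it, 10 genes were higher and 0 lower (13.1% and 9.82% over all genes), and the median difference was 0.18. With single arrays left out, the adjusted p reached 0.0819 for Plk1, 0.0721 for Cdc20 and 0.0894 for Aurka, while Prc1 and Anln passed in every such fit. So did Plk4, the kinase of centriole duplication, which had 0.00, 0.14 and 0.30 with GW610742 and -0.41, -0.19 and -0.17 with GW347845 (difference 0.38 ± 0.06, adjusted p = 1.54e-04), and Mad2l1 of the spindle checkpoint, with 0.11, 0.19 and 0.73 with GW610742 and -0.26, -0.09 and 0.07 with GW347845 (difference 0.36 ± 0.09). The second probe of Mad2l1 was higher as well, by 0.63. In replicates 1 to 3, 15 genes were higher and 0 lower, and in replicates 4 to 6, 2 and 1.

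DNA replication genes were more often higher than lower, at 7 and 1 of 38, where the shares over all genes were 13.8% and 14%. Of these 38 genes, 10 rose with GW610742 against 1 with GW347845. The median difference of the list was 0.05, against -0.05 over all genes. Replicates 1 to 3 alone gave 0.11, whereas replicates 4 to 6 alone gave only 0.003. GW610742 replicate 2 again had the highest list median, 0.24, and the other GW610742 arrays had 0.02 to 0.11. Pcna, the sliding clamp of DNA polymerases, had 0.10, 0.19 and 0.35 with GW610742 and -0.35, -0.27 and -0.22 with GW347845, so that all arrays were apart (difference 0.48 ± 0.05, adjusted p = 1.48e-06). It rose by 0.21 with GW610742 and fell by 0.27 with GW347845. Rfc4, a part of the complex that loads the clamp, rose by 0.19 with GW610742 and fell by 0.21 with GW347845. Uhrf1, which guides methylation of newly made DNA, rose by 0.61 with GW610742 and had -0.15 with GW347845 (difference 0.76 ± 0.14). Its response was 1.32 in GW610742 replicate 2 and at most 0.61 in the other GW610742 arrays. Orc5 of the origin recognition complex was the lower one, by -0.18 ± 0.05, on both its probes.

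Replication-dependent histones divided by class. Of 38 measured, 10 were higher and 7 lower. Among 13 H2A genes 6 were higher and 1 lower, among 9 H2B genes 1 was higher and 5 lower, among 6 H3 genes 3 were higher and 0 lower, and all 9 H4 genes were without a call. Over replicates 1 to 3 the histones had 11 higher and 16 lower (median -0.10), and in replicates 4 to 6, 6 and 0 (median 0.10). Histone genes are near-identical copies, so a probe may read several of them, and the calls are uncertain as to which copy they belong to. The contrast between H2A and H2B is shown for 3 gene pairs on chromosome 13 that are transcribed away from each other out of a shared promoter. Their starts are 174 bases apart for H2ac7 and H2bc7, 249 for H2ac11 and H2bc11 and 178 for H2ac12 and H2bc12, so 273, 252 and 277 of the 300 bases of each promoter window are common to both genes. The windows are printed from RefSeq (GRCm38.p6) on the strand of the H2A gene, at chr13:23574131-23574430 (plus), chr13:22042900-22043199 (minus) and chr13:22035594-22035893 (minus), with CCAAT, its reverse complement ATTGG and TATAAA in capitals.
H2ac7: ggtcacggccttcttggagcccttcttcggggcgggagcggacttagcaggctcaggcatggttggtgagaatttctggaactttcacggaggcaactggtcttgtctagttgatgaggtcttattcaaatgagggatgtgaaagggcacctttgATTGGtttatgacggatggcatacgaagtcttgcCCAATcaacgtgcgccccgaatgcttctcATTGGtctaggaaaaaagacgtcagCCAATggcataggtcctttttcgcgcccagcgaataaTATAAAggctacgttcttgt
H2ac11: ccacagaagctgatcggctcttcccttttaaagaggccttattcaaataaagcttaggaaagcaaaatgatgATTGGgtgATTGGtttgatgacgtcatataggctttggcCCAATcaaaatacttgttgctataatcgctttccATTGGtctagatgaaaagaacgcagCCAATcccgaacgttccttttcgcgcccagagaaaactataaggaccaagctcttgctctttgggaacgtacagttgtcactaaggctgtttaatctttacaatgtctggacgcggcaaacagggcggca
H2ac12: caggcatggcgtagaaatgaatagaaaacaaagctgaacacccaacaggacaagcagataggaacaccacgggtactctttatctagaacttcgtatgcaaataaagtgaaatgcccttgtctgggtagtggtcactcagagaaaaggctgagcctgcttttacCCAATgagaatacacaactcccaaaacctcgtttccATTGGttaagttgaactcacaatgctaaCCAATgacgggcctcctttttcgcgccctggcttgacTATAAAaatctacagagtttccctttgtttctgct

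CCAAT, on either strand, was in all 13 H2A and all 7 H2B windows found, against 37.4% of all windows, and TATAAA in 8 and 3 of them, against 13.6% of all. In the pairs shown, the members went to opposite sides. These pairs were picked through their H2B genes, the lower histones with the smallest adjusted p, and no other pair was compared. H2ac7 had responses of 0.71, 0.98 and 2.24 with GW610742 and 0.00, 0.25 and 1.14 with GW347845 (difference 0.73 ± 0.23, adjusted p = 0.029), and H2bc7 had -0.26, -0.08 and 0.06 with GW610742 and 0.06, 0.37 and 0.59 with GW347845 (difference -0.44 ± 0.10, adjusted p = 0.00301). The H2A gene overlapped between agonists, the H2B gene did not. H2ac12 rose by 1.28 with GW610742 and had 0.52 with GW347845, while H2bc12 had -0.09 with GW610742 and rose by 0.34 with GW347845. H2ac11 differed by 0.56 ± 0.17 and H2bc11 by -0.46 ± 0.10. The second probes of H2ac7 and H2ac12 were higher too, by 0.70 and 0.66, and that of H2bc12 had -0.28 and did not pass.

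The H2A differences again had GW610742 replicate 2 at the top, with 2.24 for H2ac7, 1.57 for H2ac11 and 2.38 for H2ac12. Without 1 array, the adjusted p reached 0.0625 for H2ac7 and 0.0715 for H2ac12. The 3 H3 genes that passed fell with GW347845. H3c13 had -0.08, 0.02 and 0.23 with GW610742 and -1.22, -0.82 and -0.73 with GW347845 (difference 0.92 ± 0.08, adjusted p = 3.93e-07). It fell by 0.87, H3c10 by 0.81 and H3c14 by 0.75 with GW347845, and only H3c14 passed with GW610742, with a rise of 0.17.

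Among collagens and other structural genes, 9 of 52 were higher and 2 lower, 9 rose and 4 fell with GW610742, and 2 rose and 10 fell with GW347845. The median difference of the list was -0.02. Of the 9 higher genes, 5 rose with GW610742 and fell with GW347845. Col3a1, the fibrillar collagen of soft tissue, had -0.01, 0.20 and 0.33 with GW610742 and -1.45, -1.14 and -0.87 with GW347845 (difference 1.33 ± 0.09, adjusted p = 7.37e-08). Its dimmer second probe differed by 0.06 and did not pass. Col5a2, which sets the width of collagen fibrils, was higher on both probes, by 0.99 ± 0.05 on the brightest and 0.33 on the other, and rose by 0.21 with GW610742. Col1a2 of type I collagen rose by 0.23 with GW610742 and fell by 0.71 with GW347845, and Lamb1, a laminin of basement membranes, rose by 0.20 with GW610742 and fell by 0.39 with GW347845. The lower pair was Col4a2, a basement membrane collagen that rose by 0.26 with GW347845, and Lox, the cross-linker of collagen, with -0.12 with GW610742 and 0.15 with GW347845 (adjusted p of the difference 0.036, up to 0.0819 without 1 array).

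Proteases and their inhibitors had 12 higher and 2 lower of 47, with a median difference of 0.01. Adam9, a membrane-bound sheddase, had 0.01, 0.10 and 0.18 with GW610742 and -1.19, -1.15 and -0.87 with GW347845 (difference 1.17 ± 0.06, adjusted p = 2.16e-08). Npc2, which carries cholesterol in lysosomes, had 0.06 with GW610742 and fell by 0.91 with GW347845. Mmp3, stromelysin, had 0.01 with GW610742 and fell by 1.16 with GW347845 (difference 1.18 ± 0.11), and its 2 further probes had 0.26 and 0.30 and did not pass. Mmp13, a collagenase, fell by 0.18 with GW610742 and had 0.06 with GW347845 (adjusted p of the difference 0.0299, up to 0.0672 without 1 array). Adamts1, which cleaves proteoglycans, fell by 0.31 with GW610742 and differed by -0.29 ± 0.06, while its second probe, about as bright, differed by 1.00.

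Of 20 Wnt receptors and modulators, a pathway that holds back fat cell formation, 5 were higher and 3 lower. The median difference of the list was -0.09. Fzd1, a receptor, had -0.12, 0.15 and 0.44 with GW610742 and -1.41, -1.16 and -0.92 with GW347845, the largest difference of this list at 1.36 ± 0.10 (adjusted p = 1.55e-07). Sfrp2, a secreted Wnt binder, had -0.01 with GW610742 and fell by 1.14 with GW347845 (difference 1.13 ± 0.08). Ctnnb1, β-catenin, fell by 0.63 with GW347845 and was higher on 2 of its 3 probes, by 0.72 and 0.58, with -0.11 on the third, a dim one. On the other side Tcf7l2, the transcription factor that β-catenin binds, had 0.10 with GW610742 and rose by 0.47 with GW347845 without overlap (difference -0.37 ± 0.05). Fzd2, another receptor, fell by 0.21 with GW610742 and had 0.07 with GW347845.

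Markers of preadipocytes and fibroblasts were higher in 4 of 17 and lower in 1, with a median difference of -0.01 and array medians of -0.04 to 0.03 in GW610742 and -0.21 to 0.04 in GW347845. S100a4, a calcium-binding protein of fibroblasts, had 0.23, 0.35 and 0.54 with GW610742 and -0.95, -0.68 and -0.42 with GW347845 (difference 1.06 ± 0.09, adjusted p = 3.13e-07), and rose with GW610742 while it fell with GW347845. Vim, vimentin, was the lower one, by -0.26 ± 0.08 (adjusted p = 0.0283, up to 0.0628 without 1 array). Whether these cells had a part in the matrix differences was not tested.

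The early secretory pathway had 14 genes higher and 5 lower of 45. Sec24d, a coat protein of vesicles that carry collagen out of the ER, had 0.11, 0.20 and 0.30 with GW610742 and -0.90, -0.78 and -0.48 with GW347845 (difference 0.96 ± 0.07, adjusted p = 1.08e-07). It rose by 0.21 with GW610742 and fell by 0.75 with GW347845. Sdf2l1, a cofactor of the ER chaperone BiP, fell by 0.24 with GW610742, had 0.05 with GW347845 and did not overlap (difference -0.30 ± 0.05). Pdia3, a disulfide isomerase, was also lower, by -0.31 ± 0.08.

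Chaperones had 13 higher and 9 lower of 65, with a median difference of -0.05. Hsp90aa1, the inducible HSP90, had 0.17 with GW610742 and fell by 1.00 with GW347845 (difference 1.17 ± 0.12, adjusted p = 2.48e-06). Fkbp7, a proline isomerase of the ER, fell by 0.95 and Hspe1, the lid of the mitochondrial chaperonin, by 0.82 with GW347845, and neither passed with GW610742. Translation factors had 12 higher and 10 lower of 65, and 6 of the 12 went opposite ways. Pabpc1, which binds poly(A) tails, rose by 0.35 with GW610742 and fell by 0.92 with GW347845 (difference 1.27 ± 0.13, adjusted p = 3.24e-06). Abce1, which splits ribosomes after termination, rose by 0.28 with GW610742 and fell by 0.41 with GW347845.

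Splicing factors had 6 higher and 6 lower of 64. Clk1, a kinase of SR proteins, fell with both agonists, by 0.75 with GW610742 and 0.26 with GW347845, and its responses of -0.97, -0.74 and -0.58 with GW610742 and -0.46, -0.26 and -0.07 with GW347845 did not overlap (difference -0.49 ± 0.07, adjusted p = 9.10e-05). Srsf5, an SR protein, fell by 0.35 with GW610742 and had 0.23 with GW347845, and was lower on both probes. Hnrnpa1, an RNA-binding repressor of splice sites, rose by 0.20 with GW610742 and fell by 0.56 with GW347845 on its brightest probe, while its 2 further probes had 0.15 and -0.02 and did not pass.

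Genes of cytokines, interferon and antigen presentation were higher in 8 of 42 and lower in 1, with a median difference of 0.03. Ccl2, a chemokine for monocytes, had 0.03, 0.07 and 0.21 with GW610742 and -0.50, -0.43 and -0.23 with GW347845 (difference 0.49 ± 0.05, adjusted p = 4.55e-06). It fell by 0.40 with GW347845, as did Csf1, the growth factor of macrophages, by 0.29. H2-K1, a class I antigen-presenting protein, rose by 0.46 with GW610742 and fell by 0.55 with GW347845 (difference 1.01 ± 0.16). Irf3, a transcription factor of the interferon response, was lower on all 3 of its probes, by -0.21 ± 0.06 on the brightest. The list gave 23 higher and 1 lower in replicates 1 to 3 and 7 and 2 in replicates 4 to 6.

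Calcium and cyclic AMP signalling, of which the cyclic AMP part drives lipolysis in fat cells, had 2 genes higher and 10 lower of 34, with a median of -0.13. This lean was present in both sets of replicates, with 1 higher and 7 lower in 1 to 3 and 2 and 8 in 4 to 6. Adcy6, which makes cyclic AMP, had 0.06 with GW610742 and rose by 0.37 with GW347845 (difference -0.31 ± 0.08). Pde4b, which degrades it, had -0.27, -0.10 and 0.01 with GW610742 and 0.04, 0.21 and 0.36 with GW347845, with all GW610742 arrays below (difference -0.32 ± 0.06, adjusted p = 0.00106). Akap12, an anchor of protein kinase A, was lower, at -0.39 ± 0.10. On the higher side, Pde1b, a calcium-activated phosphodiesterase, rose with both agonists, by 0.55 with GW610742 and 0.20 with GW347845, and was higher on both probes.

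Detoxification and redox enzymes had 9 higher and 13 lower of 74. Cyp1b1, a cytochrome P450 of steroids and arachidonic acid, had 0.21, 0.33 and 0.48 with GW610742 and -0.72, -0.61 and -0.50 with GW347845 (difference 0.95 ± 0.06, adjusted p = 3.56e-08), and rose by 0.34 with GW610742 while it fell by 0.61 with GW347845. Txn1, thioredoxin, rose by 0.44 with GW610742 and fell by 0.81 with GW347845 (difference 1.25 ± 0.11). Prdx3, the mitochondrial peroxiredoxin, had -0.02 with GW610742 and rose by 0.31 with GW347845, and Gsta4, which removes lipid aldehydes, was lower, at -0.46 ± 0.10. The list had 8 higher and 26 lower in replicates 1 to 3 (median -0.11) and 10 and 5 in replicates 4 to 6 (median 0.01).

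Receptors, partners and cofactors of the PPARs had 1 gene higher and 3 lower of 20. Ppard itself had 0.08 with GW610742 and rose by 0.20 with GW347845, and the difference of -0.12 ± 0.05 did not pass (adjusted p = 0.0813). Pparg had -0.22 with GW610742 and -0.04 with GW347845, and its difference had a 95% interval of -0.48 to 0.12, while a dim second probe differed by 0.15 and did not pass. Med1, the subunit of Mediator that nuclear receptors contact, fell by 0.44 with GW347845 and was higher without overlap (difference 0.50 ± 0.06, adjusted p = 8.74e-06), although a dim second probe had -0.07. Rxra, the partner receptor, was lower, at -0.14 ± 0.05 (adjusted p = 0.0466, up to 0.101 without 1 array).

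Of hormone and hormone receptor genes of adipocytes, 2 of 16 were higher and 4 lower. Nampt, an enzyme of NAD synthesis that is also secreted, had 0.02, 0.09 and 0.27 with GW610742 and -1.01, -0.82 and -0.74 with GW347845 (difference 0.97 ± 0.06, adjusted p = 4.26e-08). Cebpd, an early regulator of fat cell differentiation, had 0.02 with GW610742 and fell by 0.34 with GW347845. Insr, the insulin receptor, had 0.08 with GW610742, rose by 0.30 with GW347845 and did not overlap (difference -0.22 ± 0.05). Over replicates 1 to 3 the list had 2 higher and 6 lower (median -0.17), and in replicates 4 to 6, 2 and 2 (median -0.07).

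Genes that passed against DMSO with both agonists, with opposite signs, and in the difference numbered 209. Of these, 200 (2.44% of all genes) rose with GW610742 and fell with GW347845, and 9 (0.11%) fell with GW610742 and rose with GW347845. Both responses use the same DMSO hybridizations, so no overlap between them was tested. In 108 of the 200, both responses were larger than 0.2 in size, and in 56 every GW610742 array was above and every GW347845 array below all DMSO columns of its set. None of the 9 was separated in this way on both sides. These genes were picked by calls on the same arrays and columns, so their separation is no further support. Its share over all genes was not counted. Of the 200, 124 passed in all parts of the rule whichever 1 of the treated arrays was left out, and of the 9, 1 did. With fewer arrays, replicates 1 to 3 alone gave 21 such genes and replicates 4 to 6 alone 119 in the direction of the 200.

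The largest of the 200 came from several cell functions. Mdfic, an inhibitor of MyoD-family factors, had 0.28, 0.38 and 1.21 with GW610742 and -1.18, -1.12 and -0.61 with GW347845, the largest difference of all opposite genes at 1.49 ± 0.15 (adjusted p = 1.78e-06), and its highest GW610742 value was that of replicate 2. Vapa, an ER protein that tethers other membranes, had 0.09, 0.29 and 0.47 with GW610742 and -1.47, -1.07 and -0.78 with GW347845 (difference 1.38 ± 0.10). Adgra2, an adhesion receptor of Wnt signalling in vessels, rose by 0.23 with GW610742 and fell by 1.10 with GW347845. Kpnb1, the carrier of nuclear import, rose by 0.20 with GW610742 and fell by 1.05 with GW347845. In each of these the arrays of the agonists were fully apart.

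Anxa4, an annexin that binds membranes in the presence of calcium, had 0.03, 0.29 and 0.44 with GW610742 and -1.19, -1.08 and -0.86 with GW347845, and its second probe was higher as well, by 0.25 against 1.32 on the brightest. Esd, esterase D, rose by 0.20 with GW610742 and fell by 0.89 with GW347845, and its second probe differed by 0.07 without passing. Over the 50 of the 200 genes with further probes, 18 of 60 further probes were higher, 5 lower and 37 without a call, with a median of 0.02 against 0.67 on the brightest. Of the 3600 further probes of all genes, 507 were higher and 640 lower. Bcas2 of the spliceosome, Rps3a1 of the small ribosomal subunit and Pmpcb, a peptidase that trims imported mitochondrial proteins, differed by 1.18, 1.16 and 1.16 and have 1 probe each. Rab9, which returns receptors to the Golgi, was higher by 1.35 ± 0.12 without passing against DMSO with GW610742 and with a fall of 1.17 with GW347845, and its second probe was lower, by -0.16.

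**Figure D5:**
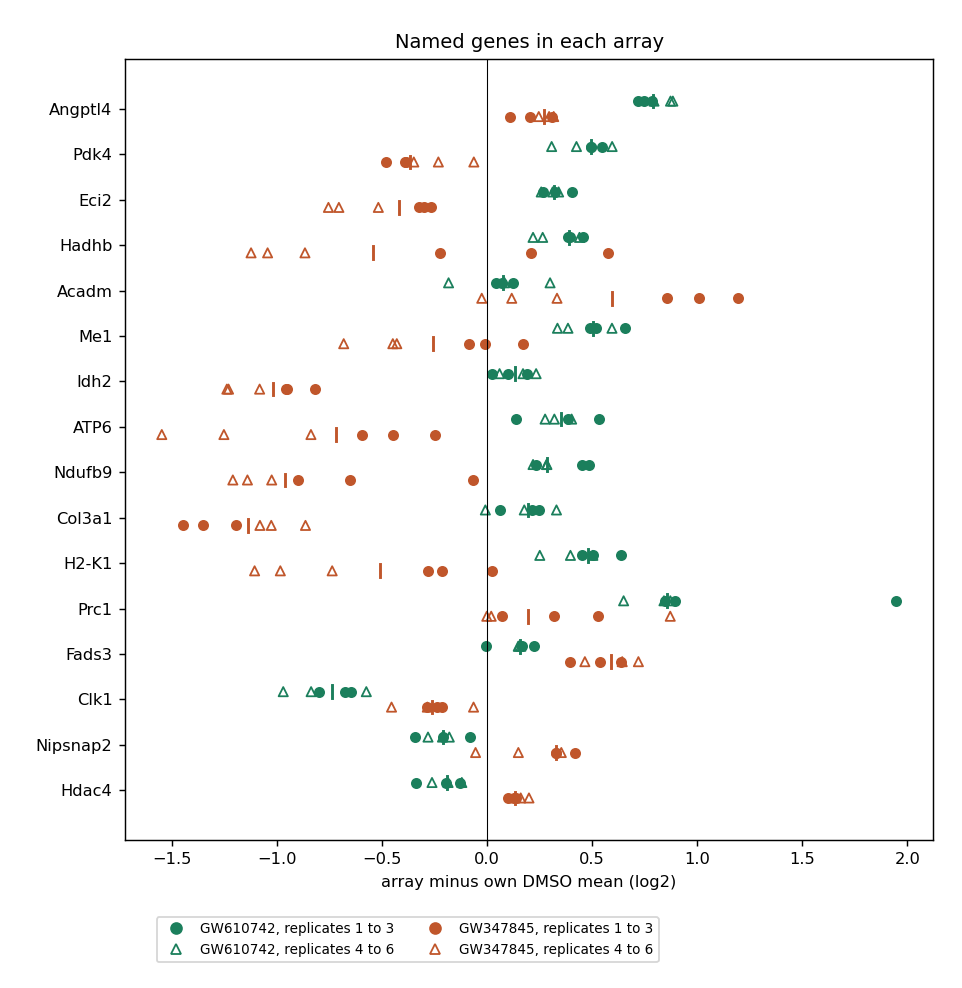
Response (log2, relative to the mean of the DMSO columns of the same set) of selected genes in each GW610742 and each GW347845 array, with replicates 1 to 3 as filled circles, replicates 4 to 6 as open triangles and the median of each group as a vertical bar. Pdk4, Idh2 and Col3a1 show all GW610742 arrays above all GW347845 arrays, and Nipsnap2 and Hdac4 the reverse.

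The 9 genes of the other direction differed by less, and large lower differences were rare over all genes too. Nipsnap2, a mitochondrial protein, had -0.34, -0.21 and -0.08 with GW610742 and -0.06, 0.33 and 0.42 with GW347845 (difference -0.47 ± 0.07, adjusted p = 1.76e-04). Hdac4, a class II histone deacetylase, fell by 0.21 with GW610742 and rose by 0.14 with GW347845, with responses of -0.34, -0.19 and -0.12 with GW610742 and 0.10, 0.13 and 0.20 with GW347845 (difference -0.35 ± 0.04, adjusted p = 2.48e-05). Rnf4, a SUMO-directed ubiquitin ligase, fell by 0.18 with GW610742 and rose by 0.21 with GW347845. In all 3 the groups did not overlap. The second probe of Rnf4 differed by -0.08, against -0.39 on the brightest, and did not pass.

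Of the rest, Adh1, alcohol dehydrogenase, fell by 0.18 with GW610742 and rose by 0.19 with GW347845, and was lower on both probes. Ppm1a, a phosphatase of stress and TGF-β signalling, fell by 0.16 with GW610742 and rose by 0.16 with GW347845, and was lower on all 3 probes (difference -0.32 ± 0.04, adjusted p = 1.73e-05, on the brightest). Ppp1r3c, which targets a phosphatase to glycogen, Vps41 of lysosomal fusion, Dalrd3 and the deubiquitinase Usp16 completed the group, with differences of -0.32, -0.32, -0.28 and -0.25.

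Outside the opposite genes, the largest lower difference without overlap between the arrays was that of Tsc22d1, a leucine zipper protein induced by TGF-β, which had -0.18 with GW610742 and rose by 0.39 with GW347845 (difference -0.57 ± 0.08, adjusted p = 5.46e-05). Izumo4, of a family of sperm membrane proteins, fell by 0.50 with GW610742 and had 0.03 with GW347845. Its responses were -0.57, -0.51 and -0.39 with GW610742 and -0.03, 0.02 and 0.14 with GW347845, and both its probes were lower. Net1, an exchange factor for RhoA, had -0.17 with GW610742 and rose by 0.31 with GW347845, again lower on both probes.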

How the data were processed

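3T3-L1 adipocytes were treated with GW610742, GW347845 or DMSO and hybridized to Illumina mouse bead arrays, 6 arrays each. The authors stabilized the variance of bead intensities in lumi and then applied quantile normalization, once to GW610742 with DMSO and once to GW347845 with DMSO. They kept probes detected in at least 1 sample. The deposited log2 values therefore hold the 6 DMSO hybridizations in 2 versions. Versions of lumi and the bead scanner settings are not given in the sources used here. The 12 treated columns and 12 DMSO columns were used as deposited, with no further scaling. The number of arrays limits the precision, and bead-level depth is unknown.

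Of 13964 probes, 13509 had values in both sets. The mean of the 6 DMSO columns of its own set was subtracted from each treated array, and the 6 GW610742 arrays were compared with the 6 GW347845 arrays by lmFit and eBayes of limma 3.58.1 in R 4.3.3, with Benjamini-Hochberg adjustment over all probes and a threshold of 0.05. The DMSO mean enters this comparison as a constant. Both sets hold the same DMSO hybridizations, so its error is largely common to both responses. What is not common is the difference between the normalizations, with an SD of 0.039 over probes. A fit of all 24 columns that counts the controls as samples, each hybridization once per normalization, was an alternative. Each agonist was also compared with its own DMSO columns. The DMSO means of the 2 normalizations differed by a median of 0.16 over probes. Errors of a difference are limma standard errors.

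Symbols came from the platform annotation. 12157 probes carried 1 symbol, 4 several and 1803 none, and only the first were used for genes. A gene was represented by the probe with the highest mean over all columns, which gave 8197 genes. Gene lists were matched by symbol and synonym, and lists with fewer than 3 measured genes (macrophage markers, 1 measured) were left out. Promoter windows of 300 bases across each gene start were taken from RefSeq, GRCm38.p6.

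Members and lists were chosen with earlier results of these data known. Genes named are the 10 with the largest difference in each direction without overlap, the 12 with the largest difference among opposite genes in each direction, up to 3 passing members of each list per direction by adjusted p, and the receptors. Not all are named. Acaa1b, Kif23, Adipoq, Plin2, Plin4, Acaa2, Slc25a20, Dld, Ndufb5, Cox7b, Prc1, Anln, Plk1, Cdc20, Aurka, H2ac7, H2ac11 and H2ac12 are not covered by these criteria and were picked with their values in view, as the largest lower difference, as the 1 mitosis gene that fell, as an adipocyte marker, as targets that rose with both agonists, as further opposite genes of their lists, for their promoters or as partners of the H2B genes.

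Alternatives were the replicate number as a block, the DMSO column of the same number, a robust variance trend, array weights, scaling by median or by cyclic loess, removal of dim probes, an unadjusted p, a Student's test with adjustment, the mean of a gene's probes, replicates 1 to 3 and 4 to 6 apart, and each treated array left out. Python 3.11.15 with matplotlib 3.10.9 drew the figures.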

Additional observations from a re-analysis of the deposited data

Results flagged for a closer look

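Among 376 groups of 6 arrays, a gene or list in 1 treatment, 25 held an array far from the other 5. Chance alone gives such an array in about 1 of 20 groups. The groups are not independent, since 15 of the 25 had the same array, GW610742 replicate 2. In it the mitosis list had a median response of 0.94, with 0.10 to 0.28 in the others. Its response was 2.24 for H2ac7, 1.57 for H2ac11 and 2.38 for H2ac12, with at most 1.05, 0.69 and 1.24 in the other arrays. It was 1.95 for Prc1, 1.94 for Anln, 1.39 for Plk1, 1.29 for Cdc20, 1.20 for Aurka, 0.73 for Mad2l1 and 1.32 for Uhrf1. Outside the cell cycle it was 0.69 for Cav1, 0.51 for Hsp90aa1, 0.85 for Pde1b and 1.21 for Mdfic. All of these lay above the other 5 arrays.

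GW347845 replicate 4 stood apart in 5 genes, with 0.37 for Pdha1, -0.12 for Ndufaf7, -0.64 for Abce1, -1.22 for H3c13 and 0.13 for Tsc22d1. Single arrays stood apart for Fads3, at -0.0049 in GW610742 replicate 1, Ndufs4, at -0.073 in GW347845 replicate 3, Ndufa6, at 0.038 in GW347845 replicate 5, Usp16, at -0.018 in GW610742 replicate 6, and the list of adipocyte hormones and receptors, at -0.044 in GW610742 replicate 6.

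Probes with values in 1 set only could not enter the comparison. The authors kept a probe if it was detected in at least 1 sample of a set, and the DMSO hybridizations are in both sets, so a probe of 1 set only was kept through its agonist arrays. A rise against DMSO is then a product of this filter and no finding. Of 209 probes only in the GW610742 set, 26 passed against DMSO, all as rises, among them a probe of the NF-κB inhibitor Nfkbia with 0.28 and a further probe of Angptl4 with 0.25. Of 246 probes only in the GW347845 set, 60 passed, all as rises, among them Aplp2 with 0.36 and the semaphorin coreceptor Nrp1 with 0.31.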

How the results depend on the processing

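The probes that differed numbered 3973 in the comparison as reported. They were 2443 (66.5% of them higher, against 49.3%) with the DMSO column of the same number subtracted. In 1 fit of all 24 columns with an interaction term they were 2358 (68.3% higher), and among the brighter 6754 probes 1941. The fit of all 24 columns counts each DMSO hybridization once per normalization, and both DMSO settings add control spread that the responses share. Cyclic loess left 64.6% of the calls higher and an unadjusted p 40.4%. Median centring moved no call, but it could not test stability. Quantile normalization had already aligned the columns of a set, and a shift common to a set cancels against its DMSO columns. Leaving out each treated array kept 991 of the 1133 higher and 632 of the 1148 lower genes in every fit. Same-numbered arrays of both agonists correlated between -0.14 and 0.33 in their deviations from the group means, GW610742 arrays and same-numbered DMSO arrays between -0.23 and 0.29, and GW347845 arrays and same-numbered DMSO arrays between -0.02 and 0.55. Not every pair was over 0.1, and the numbers were not taken as pairs. With the replicate number as a block, the differing probes were 3930, 1952 higher and 1978 lower.

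Probes that changed with GW610742 were 1361 without dim probes, 4417 at an unadjusted p, 283 in replicates 1 to 3 and 1377 in replicates 4 to 6. With GW347845 they were 1642 without dim probes and 5007 at an unadjusted p. Genes up with PPARδ and down with PPARγ numbered 102 without dim probes, 361 at an unadjusted p, 130 by a Student's test with adjustment, 21 in replicates 1 to 3 and 119 in replicates 4 to 6, against 200. The 9 genes of the other direction were 20 with array weights, 2 after cyclic loess, 5 without dim probes, 59 at an unadjusted p, 1 and 5 in replicates 1 to 3 and 4 to 6, 18 with both sets of replicates as a block (an alternative chosen after seeing the data), and 3 to 16 with each treated array left out, lowest without GW610742 replicate 2 and highest without GW347845 replicate 6.

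In replicates 1 to 3 the median difference was -0.32 for PPAR targets, -0.37 for mitochondrial β-oxidation, -0.25 for peroxisomes, -0.24 for complex I, 0.025 for mitochondrial transcripts, -0.066 for calcium and cyclic AMP signalling and 0.23 for cytokine genes, which had -0.069 in replicates 4 to 6. Also in replicates 1 to 3, it turned to positive values for the secretory pathway (0.055), splicing factors (0.019), Wnt genes (0.00047), preadipocyte markers (0.091), collagens (0.029), translation factors (0.029) and actin and myosin genes (0.033), and to -0.012 for fatty acid uptake. In replicates 4 to 6 it turned to positive values for PPAR targets (0.22), β-oxidation (0.095), lipid droplets (0.14), glycerolipid synthesis (0.016), cholesterol synthesis (0.11), the TCA cycle (0.060), complexes II to V (0.013), histones (0.10), redox enzymes (0.0085) and mature adipocyte markers (0.33), and to -0.015 for cytosolic ribosomal proteins. It was -0.024 for fatty acid synthesis, -0.043 for complex I and 0.76 for mitochondrial transcripts. The difference of Kif23, which did not pass, turned to 0.42 in replicates 1 to 3 and was -0.56 in replicates 4 to 6. The cause was not tested. Signal over background could not be set per array from these values, and doses that were not matched cannot be told apart from the receptors.

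Of 142 reported genes that passed, 124 did so in each fit with 1 treated array left out. Most were named for a large difference or a small adjusted p, so this share does not stand for all genes. Among all genes that passed, 991 of 1133 higher and 632 of 1148 lower ones were kept. With each array left out alone, the call was lost for Hadhb without GW610742 replicate 1 or GW347845 replicates 4 and 5, for Acadm without GW610742 replicates 1, 2, 3, 5 and 6 or GW347845 replicates 1, 2 and 3, for Etfa without GW347845 replicate 2, for Acaa1b and Aldoa without GW610742 replicates 1 to 6 or GW347845 replicates 1, 2 and 3. It was also lost for Hilpda without GW610742 replicates 1, 2, 3 and 5 or GW347845 replicates 2, 3 and 4, for Lpcat3 and Tkt without GW610742 replicates 1, 3, 5 and 6 or GW347845 replicates 1, 2 and 3, for Cox7a1 without GW610742 replicates 1, 5 and 6 or GW347845 replicates 1, 2 and 3, for Lox without GW610742 replicates 1, 2 and 3 or GW347845 replicates 4, 5 and 6. Others were Mmp13 without GW610742 replicates 1, 2 and 5, H2ac7 without GW347845 replicates 1, 4 and 5, H2ac12 without GW610742 replicates 1 and 2 or GW347845 replicates 1, 3, 4 and 5, Plk1 without GW610742 replicates 3 and 6 or GW347845 replicates 1, 3, 4 and 5. The rest were Cdc20 without GW610742 replicate 5 or GW347845 replicates 1, 3, 4 and 5, Aurka without GW610742 replicates 1, 3, 5 and 6 or GW347845 replicates 1, 2, 3, 4 and 5, Rxra without GW610742 replicates 1, 2, 4, 5 and 6 or GW347845 replicates 2, 3 and 4, Vim without GW610742 replicates 2, 4 and 5 or GW347845 replicates 4 and 5.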
